A study of Homo sapiens with 4 samples.

Results

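The genes described here are innate immune sensors, the molecules that relay their signal, and genes that interferon induces. They were chosen by name, from a list of 43 symbols. The rule sets no threshold on a measured value, but the list was drawn up with earlier results of these data known. RIGI and DDX58 on that list are the newer and older symbol of 1 gene, which the table lists as DDX58, so the list came to 42 genes, all of them found among the 60671 genes of the table. The genes were ordered by their role, as sensors and adaptors, receptors and transcription factors, membrane barrier proteins, RNA binding and editing effectors, and other induced genes.

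RNA with a poly(A) tail was sequenced from H9 cells, a widely used line of human embryonic stem cells kept in the feeder-free medium mTeSR, in 4 libraries. Of these, 2 came from H9 cells that the labels call control. The second group held 2 libraries of cells in which the CFIm25 gene had been edited with CRISPR/Cas9 and 3Flag-CFIm25, a tagged copy of the protein, was expressed from a lentivirus with a neomycin resistance gene, and it is called KO+OE here. CFIm25 is a subunit of the complex that helps to choose where the end of an mRNA is made, and NUDT21 is its gene. By the study's methods the re-expressing line came from 1 edited clone, its transgene ran from the EF1 promoter, and the edited clones kept a shortened CFIm25 at a low level, whereas the labels speak both of a knockout and of a knockdown. The study used both untransfected H9 cells and cells given an empty CRISPR vector (mock) as controls, and it describes its RNA-seq of the re-expressing line as set against mock cells, whereas the labels of these 2 libraries say only control. The labels name no treatment, with interferon or otherwise, for any library. Edited cells with no re-expression were not analysed here. Because the table does not tell the tagged copy from the native gene, the NUDT21 level does not check the edit: it was 161 and 152 TPM in control, compared with 162 and 157 TPM in KO+OE.

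Levels are in TPM, a share of all transcripts after correction for the length of each gene. No correction for base composition was made here. Levels of different genes are therefore set side by side as listed, and the part of base composition in them was not tested. The depth of the libraries is unknown because the table holds no read counts, and a level of a few hundredths of a TPM may rest on very few reads. Nothing states that the 2 libraries of a group came from separate cultures, so p-values measure only the spread between these libraries. All 6 markers of pluripotent cells were above 1 TPM in every library, and they summed to between 3165.8 and 3202.2 TPM. PTPRC, the defining marker of blood cells, was listed at 0 throughout, and the 5 haematopoietic markers summed to between 0.46 and 2.04 TPM. Of the 6 fibroblast-like markers 4 reached 1 TPM by their mean, and the list summed to between 1308.2 and 1432.4 TPM, nearly all of it THY1, which pluripotent cells also express. COL1A1 had a mean of 54.5 TPM, COL1A2 of 13.6 TPM and PDGFRB of 12.8 TPM, whereas LUM was at 0 and DCN reached 0.08 TPM, and the part of fibroblast-like cells in the levels of the members was not tested. Of the other lists, 1 of 6 mesendoderm markers (GATA6), 1 of 3 neuroectoderm markers (NES), 1 of 3 endothelial markers (KDR) and 0 of 4 trophoblast markers reached 1 TPM by their mean. Mitochondrial genes took between 21.0% and 22.1% of a library.

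Cells recognise foreign RNA through receptors such as RIG-I and MDA5, which signal through MAVS, and foreign DNA through cGAS, whose product switches on STING. Both routes use the kinase TBK1 to activate IRF3, which turns on interferon genes. Secreted type I interferon then binds the receptor made of IFNAR1 and IFNAR2, and a complex that contains STAT2 and IRF9 moves to the nucleus, where it binds the interferon-stimulated response element (ISRE) and turns on a large set of antiviral genes. Pluripotent stem cells are known to respond weakly to double-stranded RNA and to interferon, and to express some of the induced genes without any stimulus.

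The core letters of the ISRE are taken here as GAAANNGAA, where N is any base. They were searched on both strands in RefSeq's promoter sequences on GRCh38.p14. Each sequence runs from 250 bases before to 50 bases after a start of the gene. For IFI16, IFI27 and ISG20 that start lies inside the gene. Other spacings, such as GAAACGAA in the OAS1 and DDX58 promoters, were not counted, so a promoter without a match may still hold a similar element. Of the 42 genes, 30 had an entry among these sequences, and the letters were found in 17 of the 30, or 56.7%, against 8.1% of all 35116 promoters (2847 promoters). Interferon-induced genes were put on the list by choice, so a share above that of all promoters may follow from the choice of genes. IFITM2, IFIT2, MX2, OAS2, OASL, IRF3, IRF7, IFNAR2, DHX58, CGAS, STING1 and USP18 had no entry. The stretches printed here carry the element in 4 of the most highly expressed members and 4 members whose levels were close to 0, so that the letters can be set beside the levels that follow. Each reads 5′ to 3′ along the strand of its gene, with the matching letters in capitals, so that a match on the other strand appears as TTCNNTTTC, and overlapping matches run together.
IFITM1: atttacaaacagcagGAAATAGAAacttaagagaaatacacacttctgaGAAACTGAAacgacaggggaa
IFITM3: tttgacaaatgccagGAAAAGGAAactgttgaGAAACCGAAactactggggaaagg
ISG15: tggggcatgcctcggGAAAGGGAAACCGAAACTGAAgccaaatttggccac
BST2: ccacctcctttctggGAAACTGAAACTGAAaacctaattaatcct
IFIT1: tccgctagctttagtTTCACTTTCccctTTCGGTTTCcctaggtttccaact
IFIT3: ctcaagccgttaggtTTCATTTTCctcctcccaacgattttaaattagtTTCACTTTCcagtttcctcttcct
IFIT5: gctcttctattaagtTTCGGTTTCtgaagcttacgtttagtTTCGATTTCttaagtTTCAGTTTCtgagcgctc
IFI44: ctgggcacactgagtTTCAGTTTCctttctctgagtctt
On GRCh38.p14 the IFITM1 stretch is chr11:313985-314054 on the plus strand and the IFITM3 stretch is chr11:320872-320927 on the minus strand. The ISG15 stretch is chr1:1013369-1013419 on the plus strand and the BST2 stretch is chr19:17405731-17405775 on the minus strand. The IFIT1, IFIT3 and IFIT5 stretches are chr10:89392493-89392544, chr10:89327827-89327899 and chr10:89414509-89414582, and the IFI44 stretch is chr1:78649757-78649795, all on the plus strand. ISG15 held 3 overlapping matches and BST2 held 2, whereas both matches of IFITM1 and both of IFITM3 lay apart and began within 52 bases before the start of the gene.

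Members on both sides of 1 TPM carried the letters GAAANNGAA. The letters were found in 4 of the 5 members with a mean of at least 10 TPM that had an entry, all but ADAR, whose RNA is also made from a constitutive promoter. Only 1 start per gene was searched, and that of ADAR lies at the outer end of the gene. Any other promoter of ADAR was not searched. With this spacing, 8 of the 16 members at 1 TPM or more and 9 of the 14 members under 1 TPM held a match. IFI44L, listed at 0 in every library, held 2 matches, and IFIH1 held 4. A second element, GAS with the letters TTCNNNGAA, the same on both strands, which acts in the response to interferon gamma, was found in 8 of the 30 promoters (26.7%) against 7.7% of all promoters. The choice of genes bears on this share too. A match is a run of letters and says nothing about whether a factor was bound in these cells.

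**Figure D1:**
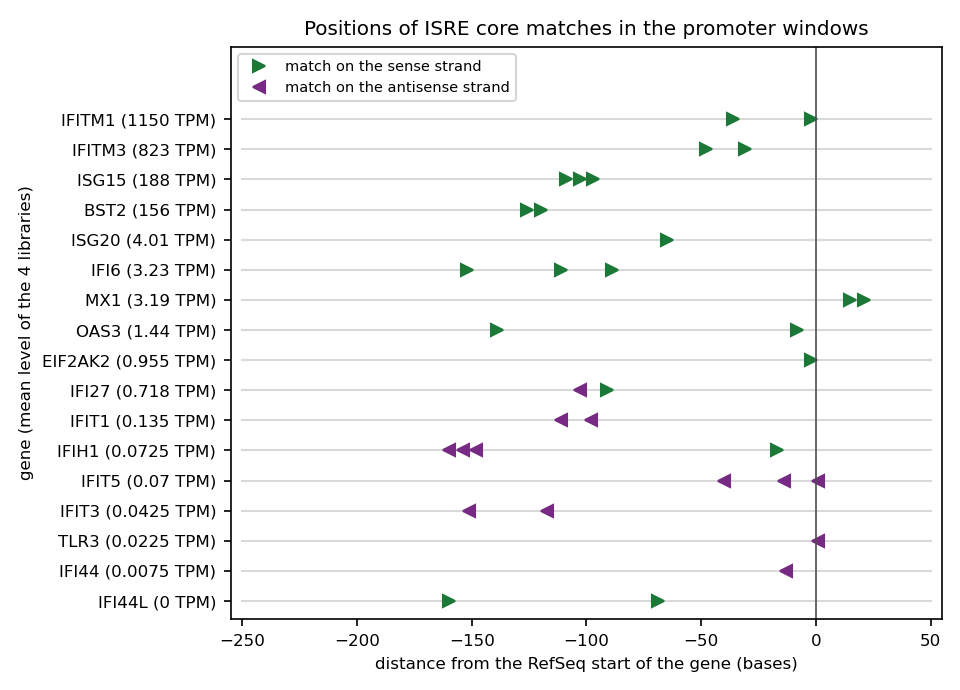
Positions of the ISRE letters in the 17 promoters that hold them, in bases from the start that each promoter sequence uses. For IFI27 and ISG20 that start lies inside the gene. Genes are ordered by their mean level in TPM (in brackets), and the arrowheads show the strand of the match relative to the gene. Matches lie on both sides of the range of levels, from IFITM1 at a mean of 1150 TPM to IFI44L at 0 TPM, and none begins more than 164 bases before the start.

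The 42 genes fell far apart in level while the 4 libraries were alike. By the mean over the 4 libraries, 8 genes were at 10 TPM or more, 15 lay between 1 and 10 TPM, 18 were above 0 but under 1 TPM, and 1 was at 0. Together they made up between 0.297% and 0.302% of a library, and IFITM1, IFITM2 and IFITM3 alone supplied between 80.4% and 81.0% of that. In order of level, IFITM1, IFITM3, IFITM2, ISG15, BST2, IRF3 and ADAR each had its lowest library above the highest library of the next gene. From MX2 downwards the ranges of neighbouring genes overlapped, with 2 exceptions. The lowest library of IFI35 was above the highest of MAVS, and the lowest of OAS3 was above the highest of EIF2AK2. At the other end, 10 genes had a mean under 0.1 TPM, and 12 did not reach 0.2 TPM in any library.

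**Figure D2:**
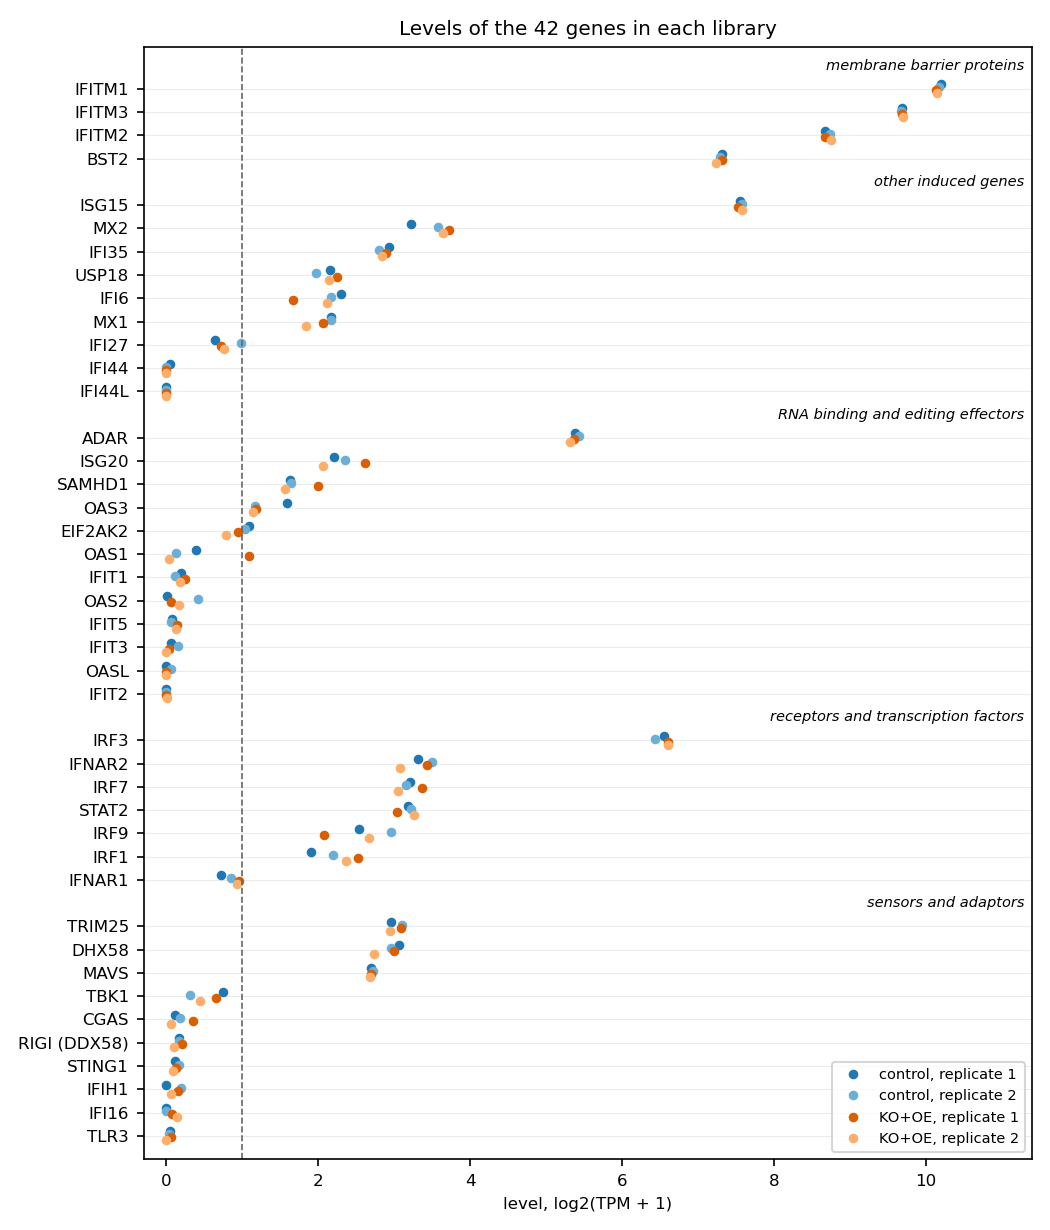
Level of each of the 42 genes in the 4 libraries, as log2(TPM + 1), with 1 point per library (blue for control, orange for KO+OE) and the genes grouped by role and ordered by level within it. The dashed line marks 1 TPM. The 4 membrane barrier genes lie above 7 on this scale, while 7 of the 10 sensors and adaptors lie below the dashed line by their mean. From IFITM1 down to ADAR in order of level, the 4 points of a gene lie apart from those of the next gene. Below ADAR the points of genes next to each other in level mostly overlap.

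The membrane barrier proteins stand at the cell surface and in endosomes, where the IFITM proteins block fusion of viruses and BST2, also called tetherin, holds budding particles at the membrane. They were the role with the highest sum, between 2515.9 and 2570.6 TPM, or 85.8% to 86.2% of all the members. IFITM1, which is also known as a surface protein of pluripotent cells, was at 1178 and 1159 TPM in control, compared with 1128 and 1134 TPM in KO+OE. Both KO+OE libraries were therefore below both control libraries, with means of 1168 ± 12.8 and 1131 ± 3.76 TPM (SD, n = 2). IFITM1 ranked 126 among all 60671 genes by its mean level. IFITM3, which acts mainly in endosomes, was at 827 and 815 TPM in control compared with 821 and 830.0 TPM in KO+OE, and ranked 152. IFITM2, its close relative, was at 407 and 427 TPM in control compared with 408 and 430.1 TPM in KO+OE. The groups overlapped for both genes, and in IFITM2 the replicates of each group were farther apart than the group means. BST2 was at 159 and 156 TPM in control compared with 159 and 149.5 TPM in KO+OE, also with overlap. The coding sequences of IFITM2 and IFITM3 were 94.0% identical over the aligned bases, and those of IFITM1 were 85.5% identical to IFITM2 and 87.6% to IFITM3, which are the highest values of any pair in the families compared. No stretch of 150 bases was shared between these 3 transcripts, so reads of that length, if placed without mismatches, could be told apart. For IFITM1, 41.2% of such stretches are also found in an overlapping transcript of another annotated gene, ENSG00000288681, for which no value was used here, so the IFITM1 level is uncertain to that extent.

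The sensors and adaptors were low as a role, with a sum between 18.4 and 21.2 TPM, and 3 of the 10 reached 1 TPM by their mean. TRIM25, the ubiquitin ligase that assists RIG-I, was at 6.75 and 7.57 TPM in control compared with 7.48 and 6.70 TPM in KO+OE. DHX58 encodes LGP2, a relative of RIG-I without its signalling domains, and was at 7.34 and 6.76 TPM in control compared with 7.0 and 5.64 TPM in KO+OE. MAVS, the adaptor on mitochondria, was at 5.47 and 5.62 TPM in control compared with 5.47 and 5.41 TPM in KO+OE, the narrowest spread of any tested sensor or adaptor. The groups overlapped for these 3 genes. The receptors that feed MAVS were far lower than the adaptor itself. RIG-I itself, listed as DDX58, was at 0.12 TPM in each control library compared with 0.15 and 0.07 TPM in KO+OE, and 96.5% of its stretches of 150 bases are shared with an overlapping annotated gene, ENSG00000288684, so its level is uncertain. IFIH1, which encodes MDA5, was at 0 and 0.14 TPM in control compared with 0.11 and 0.04 TPM in KO+OE. TLR3, the endosomal receptor for double-stranded RNA, did not exceed 0.04 TPM.

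The DNA sensing route was low at every step before the kinase's target. CGAS was at 0.08 and 0.13 TPM in control compared with 0.27 and 0.04 TPM in KO+OE, STING1 at 0.08 and 0.12 TPM in control compared with 0.09 and 0.06 TPM in KO+OE, and IFI16, a nuclear DNA sensor, was listed at 0 in control compared with 0.05 and 0.10 TPM in KO+OE. TBK1, which both routes need, was at 0.67 and 0.24 TPM in control compared with 0.57 and 0.36 TPM in KO+OE. These values are too small to compare between groups, and in CGAS the KO+OE libraries lay on both sides of the control libraries.

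The receptors and transcription factors were mostly present, with 6 of 7 genes at a mean of 1 TPM or more and a sum between 123 and 131 TPM. IRF3, the factor that TBK1 activates and that cells keep ready without induction, supplied most of it, at 93.2 and 85.7 TPM in control compared with 96.2 and 96.7 TPM in KO+OE. Both KO+OE libraries were above both control libraries, and the means were 89.5 ± 5.28 and 96.4 ± 0.396 TPM (SD, n = 2). Its exons overlap on the opposite strand with BCL2L12 over 14.2% of their length, and BCL2L12 was at 104 and 107 TPM in control compared with 105 and 99.8 TPM in KO+OE. IRF7, the factor that amplifies interferon production, was at 8.28 and 7.91 TPM in control compared with 9.29 and 7.28 TPM in KO+OE, with overlap.

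IRF1, an early target of interferon gamma that also acts in the basal expression of antiviral genes, was at 2.73 and 3.58 TPM in control compared with 4.74 and 4.16 TPM in KO+OE. The groups did not overlap, and the means were 3.16 ± 0.601 and 4.45 ± 0.410 TPM (SD, n = 2). The exons of IRF1 overlap on the opposite strand with IRF1-AS1 and ENSG00000283782 over 16.3% of their length, and the part of this overlap in its level was not tested. STAT2 was at 8.07 and 8.36 TPM in control compared with 7.21 and 8.58 TPM in KO+OE. IRF9, its partner on the ISRE, was at 4.78 and 6.78 TPM in control compared with 3.22 and 5.33 TPM in KO+OE, so the libraries of each group lay farther apart than the group means. Of its stretches of 150 bases 92.3% are shared with the overlapping gene AL136295.5, which was at 3.86 and 2.84 TPM in control compared with 4.12 and 2.92 TPM in KO+OE. In both groups IRF9 was higher and AL136295.5 lower in the library numbered 2, and the part of shared reads in this was not tested.

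The chains of the type I interferon receptor differed in level. IFNAR2 was at 8.96 and 10.3 TPM in control compared with 9.84 and 7.45 TPM in KO+OE, whereas IFNAR1 was at 0.64 and 0.81 TPM in control compared with 0.94 and 0.91 TPM in KO+OE. IFNAR2 was above IFNAR1 in all 4 libraries. Of the stretches of IFNAR2, 85.3% are shared with other annotated genes, among them the read-through transcript that joins it to IL10RB, listed as AP000295.1 at no more than 1.02 TPM.

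The RNA binding and editing effectors were dominated by ADAR, the enzyme that turns adenosine into inosine in double-stranded RNA. ADAR was at 40.7 and 42.4 TPM in control compared with 40.4 and 38.8 TPM in KO+OE, with both KO+OE libraries below both control libraries. The sum of the role was between 46.2 and 52.2 TPM, and 4 of its 12 genes reached 1 TPM by their mean. ISG20, an RNA exonuclease, was at 3.63 and 4.10 TPM in control compared with 5.14 and 3.19 TPM in KO+OE, so the KO+OE libraries enclosed the control libraries. SAMHD1, which breaks down deoxynucleotides, was at 2.08 and 2.11 TPM in control compared with 2.99 and 1.96 TPM in KO+OE, again on both sides of control. OAS3 was at 2.01 and 1.25 TPM in control compared with 1.27 and 1.21 TPM in KO+OE, where 1 control library stood above the other 3.

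The rest of that role was under 1 TPM by its mean. EIF2AK2, which encodes the kinase PKR that stops translation on double-stranded RNA, was at 1.12 and 1.05 TPM in control compared with 0.93 and 0.72 TPM in KO+OE. The OAS enzymes make the oligoadenylate that activates RNase L, and OAS1 was at 0.31 and 0.09 TPM in control compared with 1.13 and 0.02 TPM in KO+OE, so that its highest and lowest values were both in KO+OE. OAS2 was at 0.01 and 0.33 TPM in control compared with 0.04 and 0.12 TPM in KO+OE, and OASL did not exceed 0.04 TPM. The IFIT proteins bind foreign mRNA ends and are among the genes that interferon induces most strongly, and none of the 4 measured IFIT genes exceeded 0.19 TPM, the value of IFIT1 in 1 KO+OE library. IFIT1 was at 0.14 and 0.08 TPM in control compared with 0.19 and 0.13 TPM in KO+OE, IFIT5 was between 0.04 and 0.10 TPM, IFIT3 between 0 and 0.11 TPM, and IFIT2 was above 0 in 1 library only, at 0.01 TPM. The ISRE letters shown above are present in the IFIT1, IFIT3 and IFIT5 promoters as they are in those of IFITM1 and IFITM3.

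Among the other induced genes, ISG15, a ubiquitin-like protein that is joined to other proteins, was at 187 and 191 TPM in control compared with 184 and 191 TPM in KO+OE, with overlap. USP18, the protease that removes ISG15 and dampens receptor signalling, was at 3.46 and 2.93 TPM in control compared with 3.75 and 3.43 TPM in KO+OE. Of its stretches of 150 bases 14.3% are shared with other annotated genes, among them USP41, whose level ran from 1.18 to 9.23 TPM. IFI35 was at 6.66 and 5.94 TPM in control compared with 6.43 and 6.19 TPM in KO+OE. The groups overlapped for USP18 and IFI35 too.

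The dynamin-like GTPases MX1 and MX2 differed in level. The order of their groups differed too, but neither had an adjusted p under 0.05 by limma, and 34.1% of all genes tested had groups without overlap. MX2, which acts at the nuclear pore, was at 8.36 and 10.98 TPM in control compared with 12.2 and 11.5 TPM in KO+OE, with both KO+OE libraries above both control libraries. MX1, which acts in the cytoplasm, was at 3.48 and 3.49 TPM in control compared with 3.18 and 2.59 TPM in KO+OE, with both KO+OE libraries below. IFI6, a small membrane protein, was at 3.91 and 3.48 TPM in control compared with 2.17 and 3.35 TPM in KO+OE, also with both KO+OE libraries below. IFI27 was at 0.56 and 0.98 TPM in control compared with 0.64 and 0.69 TPM in KO+OE, IFI44 was above 0 in 1 control library only, at 0.03 TPM, and IFI44L was the gene at 0 in all 4.

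The comparison of KO+OE with control asks how far the line with the edit and the tagged protein stood from control cells, and for these genes no difference passed the test. It was made with limma on log2(TPM + 1) over the 12319 genes whose mean reached 1 TPM, which 23 of the members passed, so the 19 lower members have no test. Of the 23, 0 passed a Benjamini-Hochberg adjusted p of 0.05, where 0.00812% of all genes tested did (1 gene, no member), and 0 had an unadjusted p under 0.05, where 5.33% of all genes did (656 genes). The groups did not overlap in 7 of the 23 (3 higher and 4 lower in KO+OE), against 34.1% of all genes tested. The share of members without overlap, 7 of 23, was thus not above that of all genes. Fold changes were above 0 for 10 members and below 0 for 13, with a median of -0.014 on the log2 scale, against -0.012 over all genes tested.

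Members at the top and bottom of the fold changes were low in level. The difference farthest above 0 was that of IRF1, with a log2 fold change of 0.40 (95% confidence interval -0.01 to 0.81) and a limma Benjamini-Hochberg adjusted p of 0.931. The difference farthest below 0 was that of IRF9, at -0.38 (-1.03 to 0.28, adjusted p 0.942 by limma). MX2 was at 0.28 (-0.08 to 0.64, adjusted p 0.932 by limma) and IFI6 at -0.34 (-0.84 to 0.17, adjusted p 0.938 by limma), so these intervals all held 0. The 12 members with neither so large a difference nor so high a level lay between OAS3 at -0.22 (-0.76 to 0.33) and SAMHD1 at 0.15 (-0.35 to 0.66), with MX1 at -0.21 (-0.58 to 0.16). For IRF1 the unadjusted limma p was 0.0550, the lowest of any member, and it passed an unadjusted 0.05 under 4 of the other settings and also without control replicate 2, but an adjusted p of 0.05 under none.

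For highly expressed members the intervals were narrow. IFITM1 had a log2 fold change of -0.05 (-0.11 to 0.01, adjusted p 0.932 by limma), IFITM3 of 0.01 (-0.06 to 0.07) and IFITM2 of 0.01 (-0.10 to 0.11). ISG15 was at -0.01 (-0.11 to 0.08), BST2 at -0.03 (-0.14 to 0.08), IRF3 at 0.11 (-0.03 to 0.25) and ADAR at -0.07 (-0.21 to 0.07). In these 7 genes the 95% interval lay within a 1.2-fold difference either way on the log2(TPM + 1) scale. The interval lay within 1.5-fold in 16 of the 23 members and within 2-fold in 22, all but IRF9, whereas over all genes tested 26.5%, 71.0% and 92.6% lay within 1.2-fold, 1.5-fold and 2-fold. Intervals for low genes are narrowed by the pseudocount, which pulls their fold changes towards 0.

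**Figure D3:**
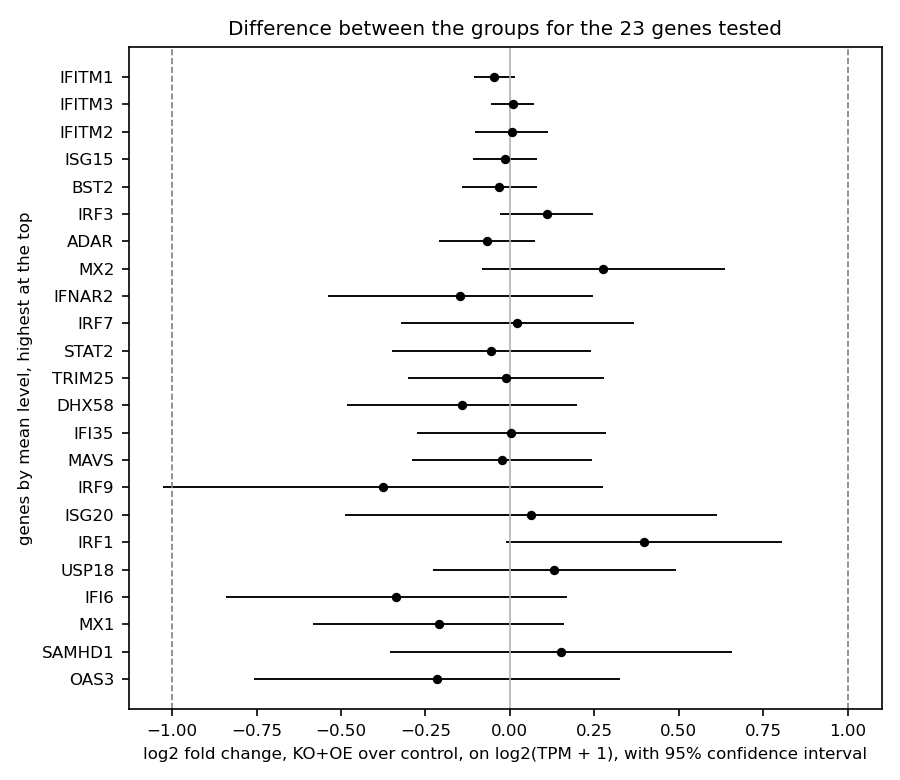
Log2 fold change of KO+OE over control for the 23 members tested, on the log2(TPM + 1) scale, with the 95% confidence interval from limma as a bar and the genes ordered by level. Every interval crosses 0, the dashed lines mark a 2-fold difference, and the intervals widen from IFITM1 at the top to the genes of a few TPM, with IRF9 reaching -1.03.

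The spread over the 4 libraries was near that of all genes in the same broad class of level. For the 8 members at 10 TPM or more, the highest library was divided by the lowest, with 1 TPM added to each. This ratio had a median of 1.06 and ran from 1.02 to 1.41, against a median of 1.11 over all 5528 genes at 10 TPM or more. That class has no upper bound, and the means of the 8 members ran from 10.8 to 1150 TPM, so the genes compared were not matched in level. For the 15 members between 1 and 10 TPM the median was 1.26 and the ratio ran from 1.03 to 1.84, against 1.29 over 6788 genes.

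Other genes of the pathway, 73 that are not members, gave the context. No interferon of the list exceeded 0.04 TPM. IFNB1, IFNA1, IFNG, IFNL1 and IFNK were listed at 0 in all 4 libraries, and IFNE was above 0 in 1 control library only. Of the 14 genes that carry or regulate the interferon signal, SOCS1, SOCS3 and PIAS1 among them, 11 reached 1 TPM by their mean. The receptor kinase JAK1 was at 2.98 and 3.31 TPM in control compared with 2.99 and 2.64 TPM in KO+OE, and TYK2, its partner, was at 39.6 and 32.6 TPM in control compared with 36.5 and 36.8 TPM in KO+OE. The groups overlapped for JAK1 and TYK2, and neither passed the test.

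Of the 18 other sensing genes 10 and of the 35 other effectors 18 reached 1 TPM by their mean. At 0 in all 4 libraries were 11 of the 73 genes, among them 4 effectors, such as the strongly inducible CXCL10, XAF1 and GBP1. Other effectors were high, with SHISA5 at a mean of 170 TPM and LY6E at 140 TPM. By their mean, 17 of the 73 genes reached 10 TPM and 34 were under 1 TPM. Of the 39 tested, 0 passed an adjusted p of 0.05, and 1 was lower and 0 were higher at an unadjusted p under 0.05, against 5.33% of all genes. That gene was IRAK1, a kinase of the toll-like receptor route, at 93.6 and 94.5 TPM in control compared with 87.8 and 83.7 TPM in KO+OE. For IRAK1 the log2 fold change was -0.13 (-0.25 to -0.02), with a limma p of 0.0303 and a Benjamini-Hochberg adjusted p of 0.928. The groups did not overlap in 14 of the 39, against 34.1% of all genes, and their median log2 fold change was -0.04.

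The members' levels went with the base composition of their transcripts, a property that the rule for choosing them does not name. Both GC content and length were read from the canonical transcript of GENCODE release 44. The 23 members at 1 TPM or more had a median GC content of 54.1% and a median length of 1923 bases, and the 19 members under 1 TPM had 41.8% and 3393 bases. Of those 19, 17 were below 51.8%, the median of the genes tested, and the exceptions were IFI27 at 58.0% and STING1 at 57.0%. The 8 members at 10 TPM or more were between 49.3% and 64.2%, the highest of them ISG15, whereas TLR3 was at 37.6%, EIF2AK2 at 38.5% and RIGI at 39.9%.

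Over the 42 members the Spearman correlation of mean level with GC content was 0.69, and with transcript length -0.35. Over 17056 coding genes above 0 the same correlations were 0.29 and -0.18. These are correlations across genes within the same 4 libraries, and genes are not independent replicates. The part of base composition and length in the levels of the members was not tested. In bulk RNA a low level in every cell and a higher level in few cells cannot be told apart.

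**Figure D4:**
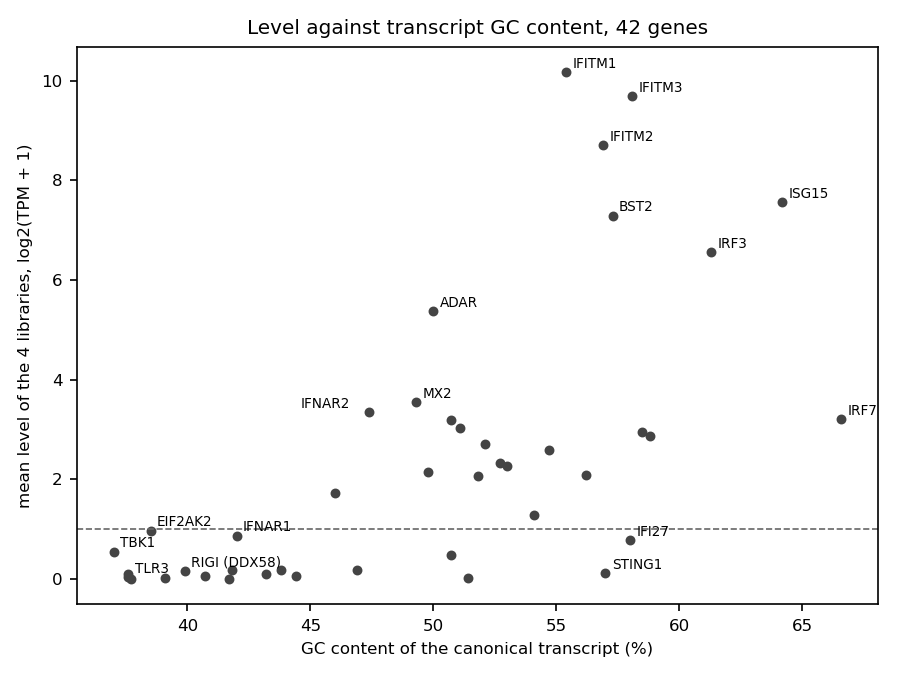
Mean level over the 4 libraries, as log2(TPM + 1), against the GC content in percent of the canonical transcript, with 1 point per gene for the 42 genes and the dashed line at 1 TPM. All 8 genes at 10 TPM or more have a GC content of at least 49.3%, and 17 of the 19 genes under 1 TPM lie below 51.8%.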

How the data were processed

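The authors deposited 1 table of gene levels with a column per library, and its header names no unit. Its deposited values were read as TPM because the columns hold decimals and sum to between 986853 and 987078. The submitters' processing notes name HISAT2, featureCounts, Subread, DESeq2 and hg38, with no versions. Counts were not analysed here, so the depth of the libraries is unknown and no counting error could be given. Columns of the table were matched to the control and KO+OE samples by their names, and 0 columns belonged to other samples.

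Values were put on the log2(TPM + 1) scale, and the genes whose mean reached 1 TPM were tested with limma 3.58.1 in R 4.3.3 (group as the only term, a mean-dependent prior, two-sided), with Benjamini-Hochberg adjustment over all 12319 genes tested. The step was tested on simulated data. The members, the other pathway genes and the marker lists were chosen with earlier results of these data known. All members are named with their level, and of the other pathway genes JAK1, TYK2 and those at an unadjusted p under 0.05 with values. SHISA5 and LY6E are named with their mean. The values of 1 further pathway gene are not reported here, and it stays in the counts of its list. The promoter letters were counted in RefSeq sequences on GRCh38.p14. GC content, length, exon overlap and shared stretches of 150 bases came from GENCODE release 44 on GRCh37, matched by Ensembl identifier. Coding identity is that of the longest reading frames of the canonical transcripts. Python 3.11.15 with biopython 1.88, scipy 1.17.1, numpy 2.4.6 and pandas 2.3.3 was used for the tables.

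Alternative settings changed the pseudocount (to 0.1 or 5), the filter (none, or a mean of 5 TPM), the scaling (median ratios or quantile normalization), the prior (no dependence on the mean) or the model (a replicate block). Each library was also left out once, and the lone library of a group was then assumed to vary like the other group.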

Additional observations from a re-analysis of the deposited data

How the results depend on the processing

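None of the members passed an adjusted p of 0.05 under any of the 12 alternatives, where the lowest adjusted p of a member was 0.865 by limma. The number of members past an unadjusted p of 0.05, which was 0, became 1 with a pseudocount of 0.1, with rescaling by median ratios, with quantile normalization and with no mean-dependent prior, and in each of these the gene was IRF1. It was between 0 and 2 when a library was left out: IRF3 passed without control replicate 1, IRF1 and MX2 without control replicate 2, none without KO+OE replicate 1, and IFI6 without KO+OE replicate 2. With the replicate number as a block it was 1, IRF9 (unadjusted limma p of 0.0417). Same-numbered libraries did not deviate together over the genes tested (correlation of -0.0485). This gave no sign that the numbers pair them, but with 2 libraries a group it cannot exclude pairing. The block changed no adjusted call among the members, while the 1 gene called among all genes tested was no longer called. The number of other pathway genes past an unadjusted p of 0.05, which was 1, was between 0 (without control replicate 1) and 2 (without KO+OE replicate 1). For the members the median log2 fold change, -0.014, was between -0.064, without KO+OE replicate 1, and 0.00029, when KO+OE replicate 2 was left out.

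Of 269 log2 fold changes of single members under these alternatives, 252 kept their sign and 17 did not. A changed filter, prior or block leaves each fold change as it is, so signs could not turn under those settings. All but 1 of the 17 turned when a library was left out. With quantile normalization TRIM25 turned to 0.0030. With a library left out, 11 members turned: IFITM3 lay between -0.0023 and 0.018, IFITM2 between -0.033 and 0.044, ISG15 between -0.042 and 0.013, BST2 between -0.074 and 0.012, IFNAR2 between -0.33 and 0.032, IRF7 between -0.14 and 0.18, STAT2 between -0.17 and 0.056, TRIM25 between -0.085 and 0.060, IFI35 between -0.068 and 0.075, ISG20 between -0.21 and 0.34, and SAMHD1 between -0.064 and 0.37. The cause of these changes was not tested. With 2 libraries a group and unknown depth, a 95% interval lay within 1.5-fold for 16 of the 23 members tested, and beyond 2-fold for IRF9.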
